A study of Mus musculus with 7 samples.

Results

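The genes described here encode protein-modifying enzymes, most of them known from cornifying skin: the transglutaminases Tgm1, Tgm2, Tgm3 and Tgm5, the peptidylarginine deiminases Padi1, Padi2, Padi3 and Padi4, and caspase 14 (Casp14). They are 9 of the 19937 genes measured, chosen by name, and each was read from the only probe set that names it alone. The assay was 1 microarray (Affymetrix Mouse Gene 1.0 ST) for each of 7 samples of mice of mixed C57BL/6 and 129 background. Levels are log2 RMA values (RMA is robust multi-array averaging, the usual summary of such probes), a scale on which 1 unit is a doubling of signal. The groups were Iqgap1 knockout at day 6 of topical 4OHT (4-hydroxytamoxifen, a ligand that activates tamoxifen-dependent proteins; n = 2), wild type at day 6 (n = 2), knockout at day 0 (n = 2) and the single wild-type sample of day 0 (n = 1). All labels give topical 4OHT as the agent, day 0 included, and none names a tamoxifen-dependent protein, a promoter or the part of Iqgap1 that was deleted. The labels call the material only mouse tissue. The 8 keratinocyte markers that were looked up (Krt5, Krt14, Trp63, Krt1, Krt10, Dsp, Dsg3 and Col17a1) had values of 9.19 or more on every array, against array medians over all probe sets of 5.61 to 5.79, so keratinocyte RNA was present throughout.

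Iqgap1, the targeted gene, was lower on every knockout array than on every wild-type array, at 8.58 and 8.67 on the knockout arrays against 10.11 and 10.59 in wild type at day 6, and at 9.02 and 8.99 in knockout against 9.94 on the wild-type array at day 0. Where its probe set lies relative to the deletion was not analysed here. The array labelled wild type at day 0 stood apart: the 7 inner root sheath markers and the 6 measured hair shaft markers were all over 1 log2 unit higher there than on any other array, which held for 1.6% of all genes. It is the only array of its group, so every comparison that uses wild type at day 0 rests on it. Xist, a transcript of female cells, was at 11.15 there and at 10.30 on replicate 1 of wild type at day 6, and at 3.55 to 4.03 on the other 5 arrays. All 4 knockout arrays lie on the same side of that split, and knockout and wild type at day 0 lie on opposite sides of it. Replicate 1 of wild type at day 6 also had higher Krt25, Krt27 and Krt71 (7.53, 7.49 and 7.73) than replicate 2 (4.78, 5.17 and 5.25). The other inner root sheath markers differed less between these replicates. Whether replicates were different mice is not stated in the labels, and the p-values speak only of the spread among these arrays, which may be technical.

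Transglutaminases join a glutamine of one protein to a lysine of another and need calcium to do so. In the upper epidermis transglutaminases 1, 3 and 5 bond involucrin, loricrin and small proline-rich proteins into the cornified envelope, the insoluble shell of the dead surface cell. Peptidylarginine deiminases, also calcium-dependent, turn arginine into citrulline, which loosens filaggrin and keratin from each other and hardens trichohyalin in the inner root sheath and medulla of the hair. Caspase 14 is a protease of cornifying keratinocytes that takes part in breaking filaggrin down to the amino acids that hold water in the skin surface.

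In knockout, day 6 differed from day 0 for most of these genes. At an adjusted p below 0.05 (limma with Benjamini-Hochberg adjustment over all genes, of which 16.3% passed), 6 of the 9 rose (Tgm1, Tgm3, Tgm5, Padi3, Padi4 and Casp14), against 7.24% of all genes, and 2 fell (Tgm2 and Padi2), against 9.07% of all genes. Both day 6 arrays lay above both day 0 arrays for 7 of the 9 (42.2% of all genes) and below them for 2 (25.2% of all genes). In wild type, where day 0 is 1 array and 7.11% of all genes passed, 2 rose (Tgm5 and Casp14; 3.51% of all genes) and 3 fell (Padi1, Padi3 and Padi4; 3.61% of all genes). There the day 6 arrays lay above the day 0 array for 4 of the 9 (33.7% of all genes) and below it for 4 (34.8% of all genes). Over both genotypes in 1 additive fit, where 11.5% of all genes passed, 3 rose (Tgm1, Tgm5 and Casp14; 5.85% of all genes) and Tgm2 fell (5.62% of all genes). For Tgm2 all 4 day 6 arrays lay below all 3 day 0 arrays (9.66% of all genes). The median change of the 9 was 1.42 in knockout, beside 0.095 over all genes, and -0.25 in wild type, beside 0.0035 over all genes. Without replicate 1 of knockout at day 0, 2 rose and 0 fell over both genotypes. Without the wild-type day 0 array, day can be estimated only within knockout, so no value over both genotypes remains. No filter on low values was applied, so all 9 were tested.

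**Figure D1:**
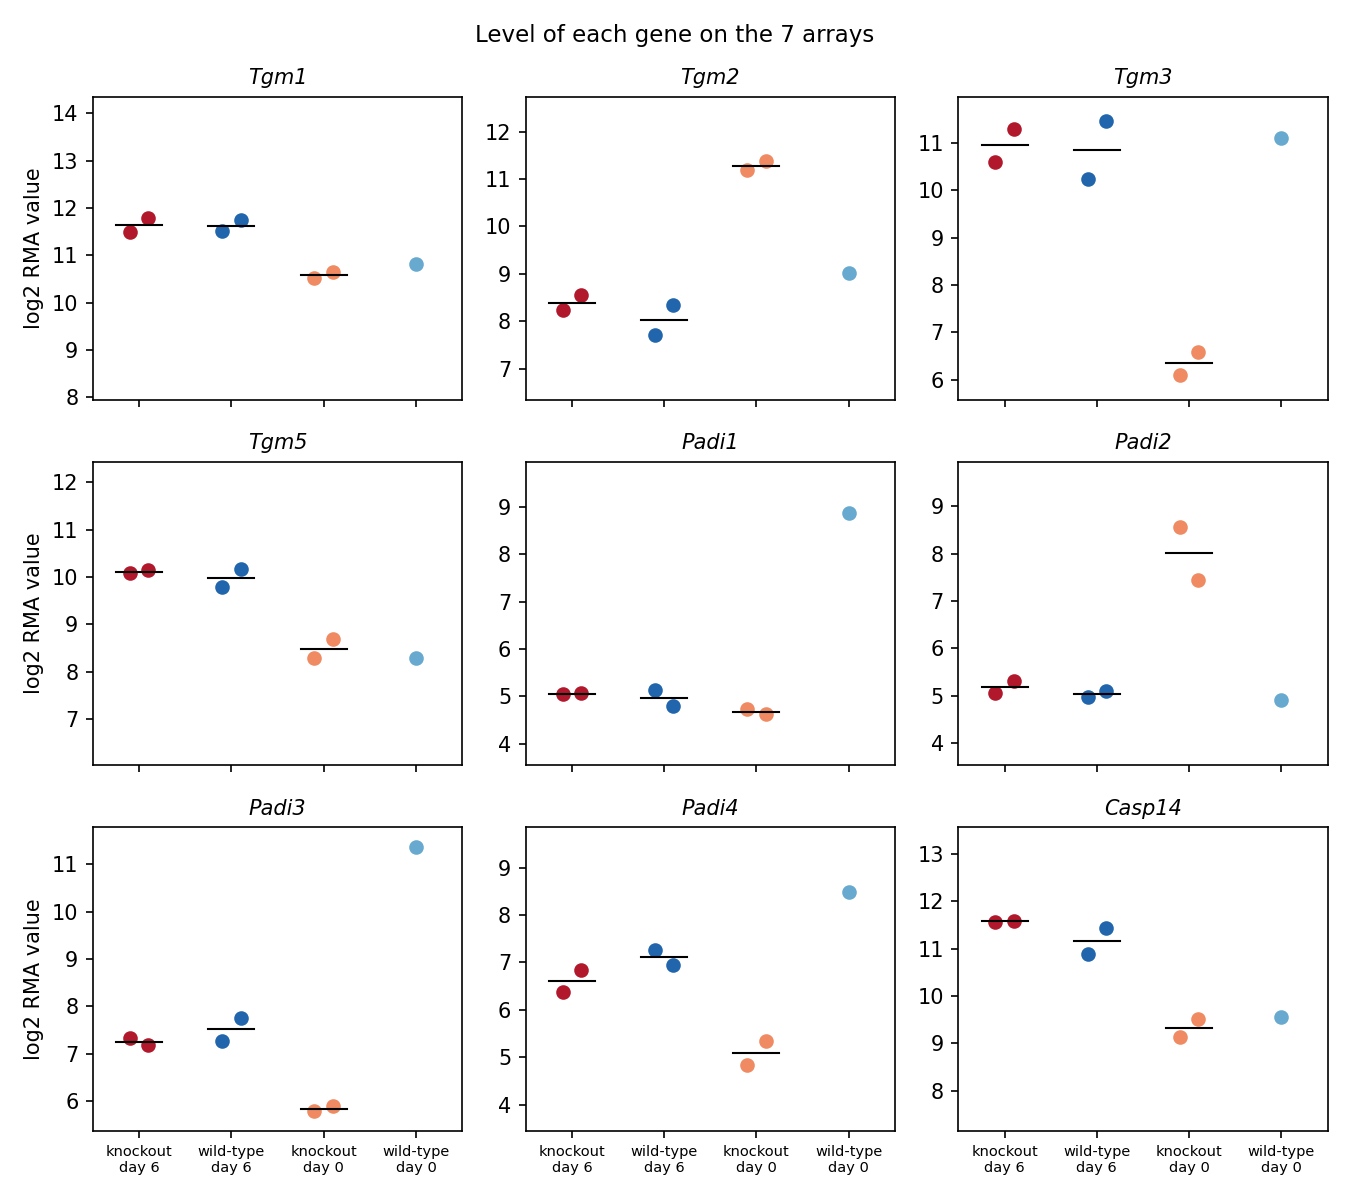
Log2 RMA value (vertical axis, the same span of log2 units in every panel but a different start) of each gene on the 7 arrays, by group, with a point for each array and a line for the mean of 2 arrays. Tgm1, Tgm5 and Casp14 are higher on all 4 day 6 arrays than on all 3 day 0 arrays, Padi1, Padi3 and Padi4 are highest on the wild-type day 0 array, and Padi2 is high on the knockout day 0 arrays alone.

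The 3 genes that were higher at day 6 in both genotypes act late in keratinocyte differentiation. Tgm1, the membrane-anchored transglutaminase whose loss in humans causes lamellar ichthyosis, had 11.49 and 11.78 in knockout arrays and 11.51 and 11.74 in wild-type arrays at day 6, against 10.52 and 10.66 in knockout and 10.82 on the wild-type array at day 0. Its day 6 and day 0 arrays did not overlap, and those of each genotype lay close together. Over both genotypes Tgm1 rose 1.93-fold (0.95 ± 0.14, SE; limma adjusted p = 0.0105), with an adjusted p of 0.0536 without replicate 1 of knockout at day 0. In knockout it rose 2.06-fold (1.05 ± 0.18, SE; limma adjusted p = 0.0106), a call lost without replicate 1 of knockout at day 0 (adjusted p = 0.0831) and without replicate 2 of knockout at day 6 (adjusted p = 0.0634). In wild type the difference was 0.80 (95% interval 0.27 to 1.34) with a limma adjusted p = 0.0871.

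Tgm5, the transglutaminase whose loss in humans causes acral peeling of the skin, had 10.07 and 10.14 in knockout and 9.79 and 10.18 in wild type at day 6. At day 0 it had 8.28 and 8.69 in knockout and 8.28 in wild type, so no day 0 array came within 1 log2 unit of a day 6 array. Tgm5 rose 3.07-fold in knockout (1.62 ± 0.21, SE; limma adjusted p = 0.00356) and 3.27-fold in wild type (1.71 ± 0.26, SE; limma adjusted p = 0.0120). This rise stayed past the threshold under each of the alternatives run, in knockout, in wild type and over both.

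Casp14 had 11.57 and 11.58 in knockout and 10.90 and 11.43 in wild type at day 6. At day 0 it had 9.14 and 9.51 in knockout and 9.56 in wild type. Its day 6 arrays again lay above its day 0 arrays by over 1 log2 unit. At day 6 both knockout arrays lay above both wild-type arrays, as for 15.9% of all genes, and that difference did not pass (limma adjusted p = 0.822). It rose 4.76-fold in knockout (2.25 ± 0.23, SE; limma adjusted p = 0.00160) and 3.03-fold in wild type (1.60 ± 0.28, SE; limma adjusted p = 0.0202), and this too held under each alternative. All 4 day 6 arrays lay above all 3 day 0 arrays for these 3 of the 9 genes, as for 11.9% of all genes. Of the 8 keratinocyte markers, Krt14 and Dsg3 rose over both genotypes and 6 did not pass, and the log2 of their summed linear signal was 15.21 to 15.21 in knockout and 14.69 to 15.14 in wild type at day 6, against 14.99 to 15.07 in knockout and 14.29 on the wild-type array at day 0. The part of keratinocyte content in these rises was not tested, and in bulk tissue fewer cells of a type and less RNA per cell cannot be told apart.

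Tgm3 encodes an epidermal transglutaminase of the upper epidermis and of the hair follicle, which becomes active once it is cleaved. It had 10.60 and 11.30 in knockout and 10.24 and 11.45 in wild type at day 6, against 6.11 and 6.59 in knockout and 11.10 on the wild-type array at day 0. The 2 knockout day 0 arrays were low and the other 5 were high, with no value between 6.59 and 10.24. Within knockout it rose 24.3-fold (4.60 ± 0.43, SE; limma adjusted p = 0.00114), which stayed past the threshold under each alternative, with log2 differences of 4.25 to 4.95. Within wild type the difference was -0.25 (95% interval -1.50 to 0.99; limma adjusted p = 0.878). The changes in knockout and wild type differed by 4.85 ± 0.68 (SE; limma adjusted p = 0.0184; 3.1% of all genes passed). That call was lost without replicate 1 (adjusted p = 0.0501) or replicate 2 (adjusted p = 0.0552) of knockout at day 6. Over both genotypes Tgm3 did not pass (adjusted p = 0.135). The log2 summed signal of the 7 inner root sheath markers was 8.03 to 8.35 in knockout and 7.97 to 9.66 in wild type at day 6, against 7.84 to 7.93 in knockout and 14.94 on the wild-type array at day 0. At day 6 Tgm3 was thus near its level on the wild-type day 0 array, while these markers were far lower.

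Tgm2, tissue transglutaminase, is made by many cells, among them endothelium, smooth muscle and fibroblasts, and cross-links matrix proteins. It had 8.24 and 8.55 in knockout and 7.71 and 8.35 in wild type at day 6, against 11.18 and 11.38 in knockout and 9.02 on the wild-type array at day 0. The order of its levels was knockout at day 0 highest, then wild type at day 0, then both day 6 groups, which overlap. In knockout it fell 7.39-fold (-2.89 ± 0.25, SE; limma adjusted p = 0.000909), and this held under each alternative. Over both genotypes it fell 4.37-fold (-2.13 ± 0.40, SE; limma adjusted p = 0.0212), but not past the threshold without any 1 of the 4 knockout arrays (adjusted p = 0.0628 to 0.0841). In wild type it stood at -0.99 (95% interval -1.71 to -0.27, limma adjusted p = 0.115) and passed under 3 of 13 alternatives. Of these, a term for the arrays with Xist signal repeated the fit without replicate 2 of wild type at day 6 (-1.31).

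Markers of cells under the epidermis are set beside Tgm2. The summed signals of fibroblast and muscle markers were lower at day 6 than at day 0 in both genotypes, as Tgm2 was. That of endothelial markers overlapped between days in knockout and was higher at day 6 in wild type. Of the 7 fibroblast markers, 4 fell and 0 rose with day in knockout, and their log2 summed signal was 13.12 to 13.81 in knockout and 12.91 to 13.34 in wild type at day 6, against 15.02 on both knockout arrays and 13.86 on the wild-type array at day 0. Of the 8 skeletal muscle markers, 8 fell in knockout, with log2 sums of 12.99 to 13.25 in knockout and 12.70 to 13.20 in wild type at day 6, against 15.17 to 15.47 in knockout and 14.43 on the wild-type array at day 0. Of the 8 endothelial markers, Emcn rose and 0 fell in knockout, and the log2 sums were 11.67 to 12.27 in knockout and 11.53 to 11.83 in wild type at day 6, against 12.24 to 12.26 in knockout and 10.94 on the wild-type array at day 0. In wild type, 1 of the 7 fibroblast markers and 6 of the 8 skeletal muscle markers fell with day, and 0 of either list rose. Of the 8 endothelial markers 2 rose there and 0 fell. All 3 sums had the same order of groups at day 0 as Tgm2, knockout above wild type. So did the day 0 sums of the keratinocyte (14.99 to 15.07 against 14.29), neutrophil (9.27 to 10.35 against 8.68) and macrophage markers (12.77 to 13.19 against 12.50). The inner root sheath and hair shaft sums had the reverse order. The part of any of these cell types in the Tgm2 values was not tested.

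**Figure D2:**
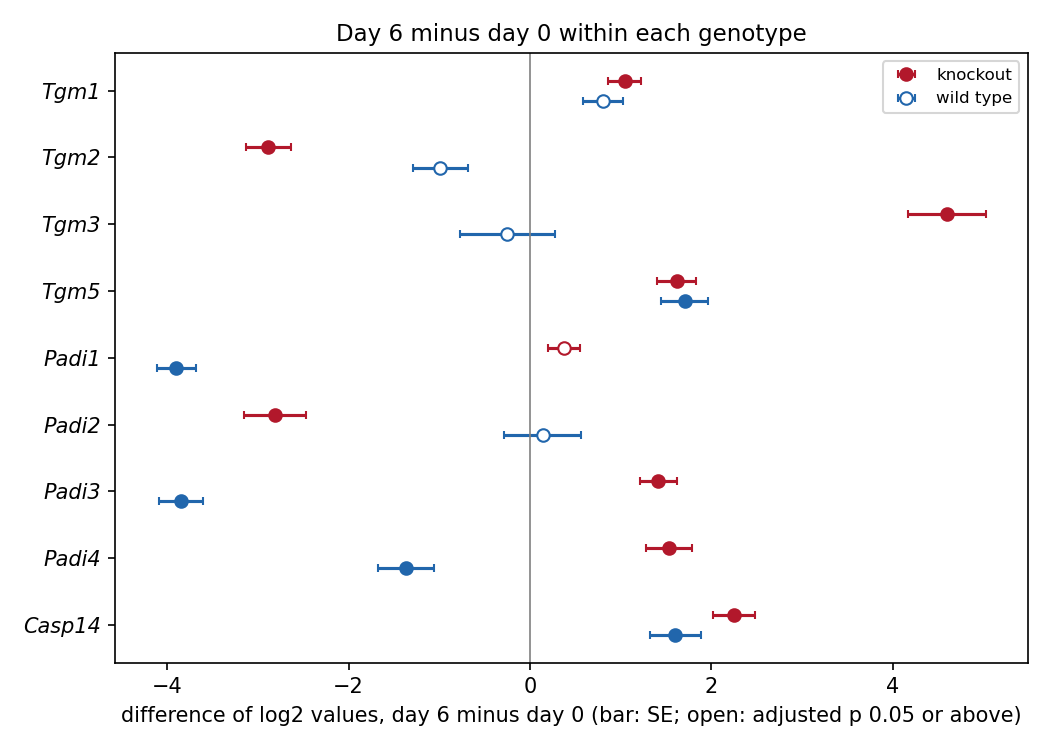
Difference of log2 values, day 6 minus day 0 (horizontal axis), for each gene in knockout (red, upper) and wild type (blue, lower), with bars for limma's SE and open symbols where the adjusted p was 0.05 or above. Tgm5 and Casp14 lie above 0 in both genotypes, while Padi3 and Padi4 lie above 0 in knockout and below 0 in wild type.

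The deiminase genes sit side by side on chromosome 4 in RefSeq GRCm38.p6, in the order Padi6, Padi4, Padi3, Padi1 and Padi2, with 0 protein-coding genes between neighbours. Padi1, Padi3 and Padi4 were each highest on the wild-type day 0 array, where Padi2 was at its lowest. The 250 bases before each start are shown because these neighbours differed in this way. They come from the RefSeq promoter table of GRCm38.p6, which had an entry for 8 of the 9 genes. Capitals mark each match, on either strand, to TATAAA (the TATA box), TGANTCA (the AP-1 element), GGGCGG (the GC box) or CCAAT (the CCAAT box). No 2 of the matches shown overlap.
Padi1 (chr4:140845779-140846028, minus strand): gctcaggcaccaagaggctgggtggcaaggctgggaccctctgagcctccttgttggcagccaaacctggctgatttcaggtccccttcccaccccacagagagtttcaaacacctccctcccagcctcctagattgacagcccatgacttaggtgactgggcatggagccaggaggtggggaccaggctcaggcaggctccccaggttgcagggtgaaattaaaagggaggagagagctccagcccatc
Padi3 (chr4:140810649-140810898, minus strand): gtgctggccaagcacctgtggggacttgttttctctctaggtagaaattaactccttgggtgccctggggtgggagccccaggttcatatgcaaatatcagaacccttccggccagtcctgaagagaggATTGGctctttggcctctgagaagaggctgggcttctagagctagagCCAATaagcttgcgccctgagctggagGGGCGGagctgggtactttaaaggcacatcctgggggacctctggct
Padi4 (chr4:140774204-140774453, minus strand): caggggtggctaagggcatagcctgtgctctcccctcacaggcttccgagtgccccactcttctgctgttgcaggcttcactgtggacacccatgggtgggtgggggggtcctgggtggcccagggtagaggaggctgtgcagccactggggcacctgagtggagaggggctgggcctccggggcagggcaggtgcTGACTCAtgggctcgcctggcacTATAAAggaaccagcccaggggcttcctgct
Padi2 (chr4:140906110-140906359, plus strand): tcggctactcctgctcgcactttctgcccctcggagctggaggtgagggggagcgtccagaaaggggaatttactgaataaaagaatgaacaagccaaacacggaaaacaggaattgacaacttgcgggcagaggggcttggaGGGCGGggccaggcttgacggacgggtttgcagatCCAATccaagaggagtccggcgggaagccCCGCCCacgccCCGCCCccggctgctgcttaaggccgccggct
The Padi4 window held TATAAA at -31 to -26 and TGACTCA at -54 to -48, counted back from the base before the start at -1. Padi2 had 3 matches to GGGCGG and Padi3 had 1, both had CCAAT, and the Padi1 window had none of the 4 motifs. Over all 32851 promoter windows of this length, 12.4% held TATAAA, 6.75% TGANTCA, 32.7% GGGCGG and 33.8% CCAAT.

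Padi1 encodes an epidermal deiminase that acts on keratins. It had 5.05 and 5.06 in knockout and 5.14 and 4.79 in wild type at day 6, against 4.72 and 4.63 in knockout and 8.87 on the wild-type array at day 0. The wild-type day 0 array stood far above the other 6, which all lay below the array medians. In wild type Padi1 fell 14.9-fold with day (-3.90 ± 0.21, SE; limma adjusted p = 0.000196), and in knockout its difference was 0.38 (95% interval -0.038 to 0.79; limma adjusted p = 0.215).

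Padi3 encodes the deiminase of hair follicle and upper epidermis that modifies trichohyalin and filaggrin. In humans its loss, like that of TGM3 or trichohyalin, causes uncombable hair. It had 7.33 and 7.19 in knockout and 7.28 and 7.76 in wild type at day 6, against 5.79 and 5.89 in knockout and 11.37 on the wild-type array at day 0. There were 3 separate levels: low in knockout at day 0, middle in both day 6 groups, which overlap, and high in wild type at day 0. It rose 2.67-fold in knockout (1.42 ± 0.20, SE; limma adjusted p = 0.00491) and fell 14.4-fold in wild type (-3.85 ± 0.25, SE; limma adjusted p = 0.000368), and both calls held under each alternative. Over both genotypes the 2 directions gave -0.69 (adjusted p = 0.724).

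Padi4 encodes the deiminase known from granulocytes, where it acts on histones. It had 6.38 and 6.85 in knockout and 7.27 and 6.95 in wild type at day 6, against 4.83 and 5.34 in knockout and 8.48 on the wild-type array at day 0. The order was that of Padi3. At day 6 both wild-type arrays lay above both knockout arrays, as for 15.7% of all genes, and that difference did not pass (limma adjusted p = 0.812). It rose 2.89-fold in knockout (1.53 ± 0.25, SE; limma adjusted p = 0.00889), which missed the threshold without replicate 1 of knockout at day 0 (adjusted p = 0.0557). In wild type it fell 2.58-fold (-1.36 ± 0.31, SE; limma adjusted p = 0.0487), a call that 9 of 13 alternatives lost (adjusted p of 0.0374 to 0.130 over all 13). The log2 summed signal of the 9 neutrophil markers was 11.59 to 11.83 in knockout and 11.58 to 12.65 in wild type at day 6, against 9.27 to 10.35 in knockout and 8.68 on the wild-type array at day 0. Of these markers 1 (Mmp9, 3.68) rose and 0 fell with day in knockout, and 3 (Mmp9, 5.62, Mmp8, 3.64, and Cxcr2, 3.01) rose and 0 fell in wild type. Mmp9, at 11.09 and 11.02, made the largest part of the sum in knockout at day 6. The median change of the 9 markers in knockout was 0.70, far below that of Mmp9. In knockout the sum and Padi4 were both higher at day 6, and on the wild-type day 0 array the sum was lowest and Padi4 highest. The part of neutrophils in the Padi4 values was not tested.

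The levels of hair genes are set beside these 3 deiminases in the map of log2 values by array. In wild type 7 of 7 inner root sheath markers (Krt25, Krt27, Krt28, Krt71, Krt72, Krt73 and Tchh) and 6 of 6 hair shaft markers fell with day. In knockout 0 of the 7 inner root sheath markers passed the threshold, and of the hair shaft markers Dsg4 fell. The hair shaft markers had log2 sums of 7.64 to 7.66 in knockout and 7.57 to 8.28 in wild type at day 6, against 7.95 to 8.10 in knockout and 13.69 on the wild-type array at day 0. Tchh, the trichohyalin gene and a substrate of these enzymes, had 6.66 and 6.32 in knockout and 6.89 and 6.11 in wild type at day 6, against 5.67 and 5.41 in knockout and 12.02 on the wild-type array at day 0. The part of hair follicle content in the wild-type day 0 values of Padi1, Padi3, Padi4 and Tgm3 was not tested. Nor was its part in the knockout values, where Dsg4 fell by 2.57 on the log2 scale and Tchh stood at 0.95 (adjusted p = 0.0673).

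**Figure D3:**
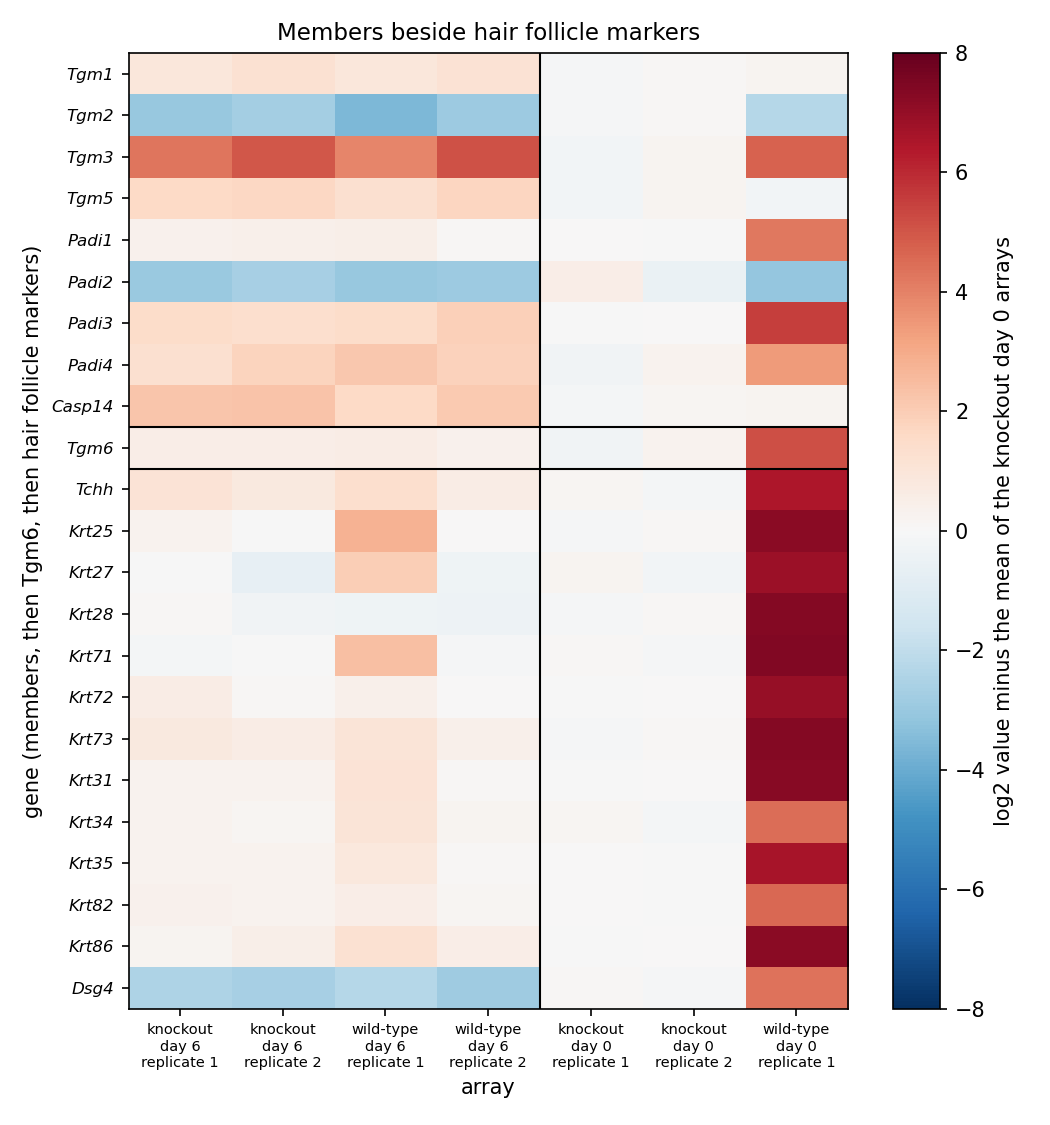
Log2 value minus the mean of the 2 knockout day 0 arrays (colour) for the 9 genes, Tgm6 and 13 hair follicle markers (rows) on the 7 arrays (columns). Padi1, Padi3, Padi4, Tgm3 and Tgm6 are raised in the wild-type day 0 column together with the hair markers. Tgm3 is also strongly raised in all 4 day 6 columns, where Padi3, Padi4, Tgm5 and Casp14 are raised less.

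Padi2 encodes the most widely distributed deiminase, known from muscle, brain and secretory tissue. It had 5.07 and 5.32 in knockout and 4.98 and 5.11 in wild type at day 6, against 8.56 and 7.45 in knockout and 4.91 on the wild-type array at day 0. Knockout at day 0 was high, with its 2 replicates over 1 log2 unit apart, and the other 5 arrays lay between 4.91 and 5.32. It fell 7.03-fold in knockout (-2.81 ± 0.34, SE; limma adjusted p = 0.00283), which held under each alternative, and in wild type the difference was 0.14 (95% interval -0.86 to 1.14; limma adjusted p = 0.921). The muscle marker sums were 15.17 to 15.47 in knockout at day 0, where Padi2 was high, and 14.43 on the wild-type day 0 array, where it was lowest. At day 6 these sums were lower still, 12.99 to 13.25 in knockout and 12.70 to 13.20 in wild type. Padi2, at 4.98 to 5.32, was not lower there than on the wild-type day 0 array. All these Padi2 values lay below the array medians (5.61 to 5.79). Padi2 thus had little room to fall further, and this comparison cannot show whether it follows the muscle sums. The part of muscle in the Padi2 values was not tested.

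At day 6 the knockout minus wild-type differences of the 9 genes were -0.50 to 0.41. Of the 9, 0 passed the test, as did 0 (0%) of all genes (limma). With 2 arrays in each group, the intervals below do not exclude larger differences. Over all genes 1182 had an unadjusted p below 0.05, and 1 probe set passed with all probe sets tested. The largest positive difference was that of Casp14, 0.41 (95% interval -0.13 to 0.96; adjusted p = 0.822), and the largest negative that of Padi4, -0.50 (95% interval -1.10 to 0.10; adjusted p = 0.812). The 2 knockout arrays lay above the 2 wild-type arrays for Casp14 (15.9% of all genes) and below them for Padi4 (15.7% of all genes). For Tgm1 the interval was -0.42 to 0.44, for Tgm5 -0.38 to 0.62, for Padi1 -0.33 to 0.50 and for Padi3 -0.74 to 0.22. For Tgm2 it was -0.22 to 0.95 and for Padi2 -0.67 to 0.97. For Tgm3, the least precise, it was -0.91 to 1.12. Over both days 0 of 9 passed as well, and 0 (0%) of all genes (limma; 3729 had an unadjusted p below 0.05, and 836 genes passed without replicate 2 of wild type at day 6). For 0 of the 9 were all knockout arrays above all wild-type arrays (5.24% of all genes). Padi4 was lower on all 4 knockout arrays than on all 3 wild-type arrays (5.85 and 7.57 on average; -1.66 ± 0.57, SE; limma adjusted p = 0.243), as were 7.46% of all genes.

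At day 0, knockout against the 1 wild-type array, where 14.4% of all genes passed, 2 were higher past the threshold (Tgm2 and Padi2; 8.53% of all genes) and 4 were lower (Tgm3, Padi1, Padi3 and Padi4; 5.86% of all genes). Padi3 was 46.2-fold lower in knockout (-5.53 ± 0.25, SE; limma adjusted p = 0.000132), Tgm3 26.9-fold lower, Padi1 18.3-fold lower and Padi4 10.5-fold lower, each under all 13 alternatives. Padi2 was 8.58-fold higher in knockout (3.10 ± 0.42, SE; limma adjusted p = 0.00630) and Tgm2 4.79-fold higher (2.26 ± 0.30, SE; limma adjusted p = 0.00598). With a term for the arrays with Xist signal Padi2 stood at 2.98 with a larger error (SE 0.70, limma adjusted p = 0.103), and Tgm2 at 1.62 (SE 0.31, adjusted p = 0.0634). That term is set only by the difference between the 2 wild-type day 6 replicates. It therefore cannot separate the Xist split from genotype at day 0. Both knockout arrays lay above the wild-type array for 3 of the 9 (36% of all genes) and below it for 6 (51.6% of all genes). Tgm1 (-0.23 ± 0.22), Tgm5 (0.21 ± 0.26) and Casp14 (-0.24 ± 0.28, SE) did not pass. Genotype, the Xist split and the hair marker levels cannot be told apart at day 0. The contrast of the 2 day changes, knockout minus wild type, passed upward for 4 of the 9 (Tgm3, Padi1, Padi3 and Padi4; 1.76% of all genes) and downward for Padi2 (1.35% of all genes). For Padi1 (4.28) and Padi3 (5.26) it stayed past the threshold under all 13 alternatives, for Padi4 it was lost without replicate 2 of knockout at day 6 (adjusted p = 0.0546), and for Padi2 it was lost under 7 of 13 (adjusted p of 0.00877 to 0.139 over all 13). Tgm2 stood at -1.90 (limma adjusted p = 0.0562) and passed under 4 of 13 alternatives, among them without replicate 1 of wild type at day 6 (-2.22, adjusted p = 0.0249).

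**Figure D4:**
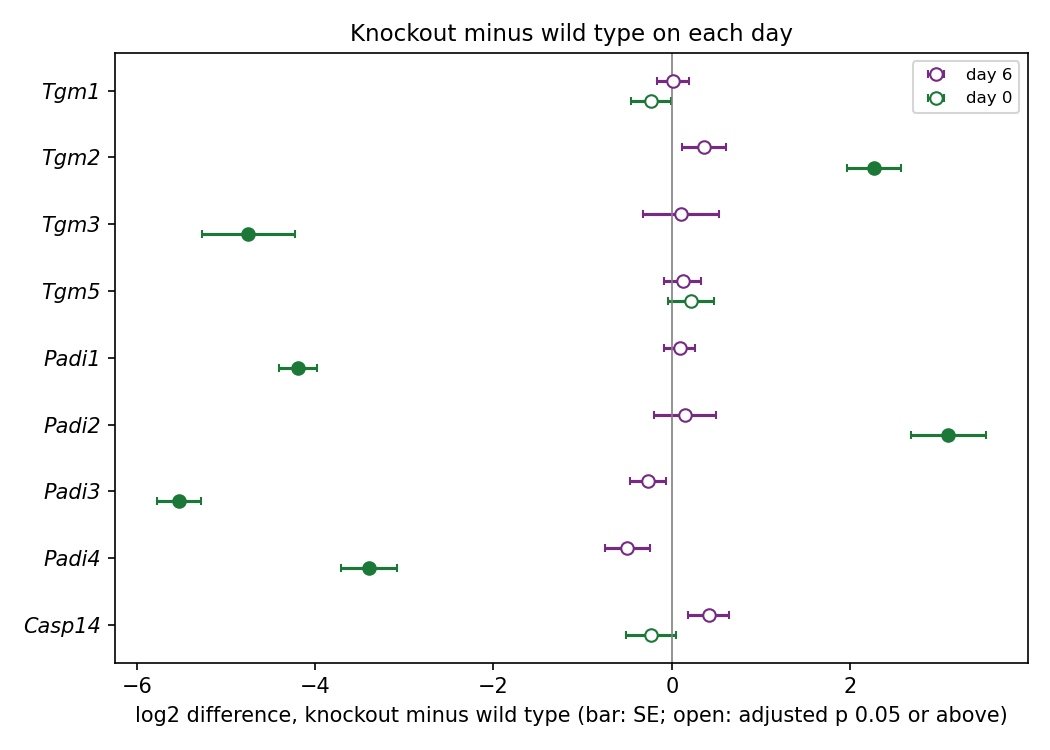
Difference of log2 values, knockout minus wild type (horizontal axis), for each gene at day 6 (purple, upper) and day 0 (green, lower), with bars for limma's SE and open symbols where the adjusted p was 0.05 or above. All day 6 symbols are open and lie between -0.50 and 0.41, while at day 0 Tgm3, Padi1, Padi3 and Padi4 lie far below 0 and Tgm2 and Padi2 above it.

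The other genes of both families were mostly low. Of Tgm4, Tgm6, Tgm7, F13a1 (the clotting factor XIII chain, also made by macrophages), Epb42 (an inactive red cell relative) and Padi6, 0 of 6 rose and 0 fell over both genotypes, and their median was -0.25, beside 0.055 over all genes. Tgm6, a close neighbour of Tgm3 on chromosome 2 with 1 protein-coding gene between them, had 4.86 and 4.84 in knockout and 4.90 and 4.65 in wild type at day 6, against 4.04 and 4.59 in knockout and 9.48 on the wild-type array at day 0. It shared the high wild-type day 0 value of Tgm3 but not its high day 6 values. In wild type Tgm6 fell with day (-4.70, limma adjusted p = 0.000231) and in knockout its difference was 0.54 (adjusted p = 0.162). Tgm7, next to Tgm5 with 0 protein-coding genes between them, stood at -0.52 (adjusted p = 0.205) while Tgm5 rose. F13a1 (-0.57, adjusted p = 0.212) and Tgm4 (0.22, adjusted p = 0.355) did not pass. Padi6 had values of 3.93 to 4.43, close to the 3.50 to 4.25 of Xist and Y-linked genes on arrays without their signal.

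Of the 17 measured substrate genes of the envelope and hair, 4 rose and Flg2 fell over both genotypes, with a median of 0.31. Rptn, the repetin gene of the fused S100 family, rose 2.79 ± 0.21 (SE; limma adjusted p = 0.00118), and the small proline-rich gene Sprr1b rose 1.01 ± 0.15 and the cornifelin gene Cnfn 0.94 ± 0.15 (SE). Flg2, a filaggrin relative, fell by 3.67 on the log2 scale (SE 0.57; limma adjusted p = 0.0114). Involucrin (Ivl, 0.32, adjusted p = 0.577) and loricrin (Lor, -0.57, adjusted p = 0.393), main substrates of transglutaminase 1, did not pass. In knockout 4 of these genes (Rptn, Sprr1b, Sprr3 and Cnfn) rose and Flg2 fell, and in wild type 3 (Rptn, Sprr1b and Hrnr) rose and 1 (Tchh) fell. Of the 13 genes of filaggrin processing and protease control, Klk8 (2.23 ± 0.24, SE; limma adjusted p = 0.00358), a kallikrein protease, and Blmh (1.30 ± 0.32, SE; limma adjusted p = 0.0486), the hydrolase that acts on filaggrin fragments after caspase 14, rose and 0 fell, with a median of 0.28. Furin, a proprotein-cleaving protease (0.88, adjusted p = 0.0999), and Klk5 (0.48, adjusted p = 0.163) did not pass. Blmh rose in knockout (1.81, adjusted p = 0.00737), and in wild type it stood at 0.53 (adjusted p = 0.493). Furin rose in wild type (1.70, limma adjusted p = 0.00575) and stood at 0.34 in knockout (adjusted p = 0.257). Whether these changes differ between the genotypes is not read from these values.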

How the data were processed

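The authors deposited log2 values, whose scale was read from their range (2.37 to 13.38). The submitters' processing notes name RMA and R 2.11.1. RMA removes background, equalizes arrays by quantiles and summarizes probes, which compresses low values and understates fold changes of weak genes. RMA settings, array batches and the genome build are not given in the sources used here. Of 34760 probe sets, 21640 had 1 gene symbol, 1321 several and 11799 none. Of several probe sets naming a gene alone, the brightest on average was kept, giving 19937 genes, 19855 of them matched by gene identifier to RefSeq GRCm38.p6.

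Groups came from sample titles. limma 3.58.1 in R 4.3.3 (lmFit, eBayes, two-sided) was fitted to all genes: additively in genotype and day (4 residual degrees of freedom) and with 4 group means (3), with Benjamini-Hochberg adjustment over all genes and a threshold of 0.05. With group means, wild type at day 0, a lone array, is assumed to vary like the other groups. Intervals are 95% intervals from the moderated variances. The number of arrays limits precision. The procedure was tested on simulated data. The 15 alternatives include an averaged probe set, all probe sets, dim genes left out (mean below 5), median centring, and trend and robust options. They also include a replicate block, a term for or removal of the arrays with Xist signal, and each array left out. With group means, leaving out an array that a comparison does not use changes its error but not its difference. Leaving out the wild-type day 0 array in this way changes neither. With group means, the term for the arrays with Xist signal is set only by the 2 wild-type day 6 arrays. Except for genotype at day 0, it repeats a fit without a wild-type day 6 array. Some alternatives are thus the same fit, and counts of alternatives include such fits more than once. The wild-type day 0 array cannot be left out of a comparison that needs its group.

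The members, the gene and marker lists and the alternatives were chosen with earlier results of these data known. Named genes are the 9 members, Iqgap1, up to 4 genes of each list of related genes with the smallest p for day over both genotypes, and for each member the 2 genes most correlated with it; Ivl, Lor, Tchh, Sprr3, Hrnr, Padi6 and the markers were named after their values were seen, as was the account of Tgm6.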

Additional observations from a re-analysis of the deposited data

Results flagged for a closer look

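For 5 of the 9 genes the day 6 against day 0 change differed between knockout and wild type in the test of that difference itself (limma, adjusted over all genes, of which 3.10% passed). The change in knockout minus the change in wild type was 5.26 for Padi3 (adjusted p = 0.000793), 4.28 for Padi1 (adjusted p = 0.000965), 2.89 for Padi4 (adjusted p = 0.0180) and 4.85 for Tgm3 (adjusted p = 0.0184). For Padi2 it was -2.95 (adjusted p = 0.0397). Each of these rests on the 1 wild-type day 0 array, which was also the array with high hair follicle markers, and without which the difference has no value. At day 6 the same 5 genes had knockout minus wild-type differences of -0.50 to 0.15. Groups of 1 or 2 arrays are too small to test single arrays as outliers.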

How the results depend on the processing

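Of 28 member differences past the threshold, 18 stayed past it under all alternatives run and 0 changed sign. The count of genes called for day over both genotypes was 2286, 4027 without the arrays with Xist signal, and 727 to 3251 with each array left out. For the other comparisons the ranges with each array left out were 1381 to 4027 (day in knockout, 3251 as reported), 1040 to 2209 (day in wild type, 1418), 0 to 836 (genotype over both days, 0), 0 to 43 (genotype at day 6, 0), 1239 to 4328 (genotype at day 0, 2869) and 143 to 1038 (difference in day change, 619). Genotype at day 6 gave 1 probe set with all probe sets tested and 1 gene with trend and robust options, and genotype at day 0 gave 682 with the Xist term. Without wild-type replicate 1 of day 0, comparisons of single groups that use it were not run. Values and counts given without it for day over both genotypes are those of day in knockout. Those given for genotype over both days are those of genotype at day 6. The same holds without the arrays with Xist signal, of which it is one.

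Of the 35 uncalled member differences, 14 alternatives brought one past the threshold. These were Tgm1 in wild type with trend and robust options (limma adjusted p = 0.0372), and Tgm2 in wild type with the block below. Tgm2 in wild type also passed with the Xist term and without replicate 2 of wild type at day 6, which are the same fit. The Tgm2 difference in day change passed with dim genes left out (0.0480), with trend and robust options (0.0325), without replicate 1 of wild type at day 6 (0.0249) and with the block. The other 6 (Tgm3, Padi2 and Padi4, day over both genotypes) lack the wild-type day 0 array and only repeat the knockout estimate, as do the day changes without it below. Sign changes arose only among these 35. Without the arrays with Xist signal, day over both genotypes turned to 0.38 for Padi1 and 1.42 for Padi3, genotype over both days to -0.072 for Tgm5 and 0.26 for Padi1, and genotype at day 6 to -0.11 for Tgm1, -0.51 for Tgm3 and -0.072 for Tgm5. With the Xist term, genotype over both days turned to -0.088 for Tgm5 and -0.0095 for Casp14, genotype at day 6 to -0.11 for Tgm1, -0.51 for Tgm3 and -0.072 for Tgm5, genotype at day 0 to -0.17 for Tgm5, and the difference in day change to 0.10 for Tgm5. With each array left out, day over both genotypes ranged from -1.78 to 0.38 (Padi1), -1.25 to 1.42 (Padi3) and -0.047 to 1.53 (Padi4), and day in wild type from -0.86 to 0.36 (Tgm3). Genotype over both days ranged from -0.18 to 0.011 (Tgm1), -2.63 to 0.10 (Tgm3), -2.14 to 0.087 (Padi1) and -0.047 to 0.41 (Casp14). Genotype at day 6 ranged from -0.14 to 0.16 (Tgm1), -0.51 to 0.71 (Tgm3), -0.072 to 0.31 (Tgm5) and -0.086 to 0.26 (Padi1), and the difference in day change from -0.30 to 0.11 (Tgm5). The cause was not tested.

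The replicate numbers of the labels were not shown to pair arrays: differences between replicates 1 and 2 correlated over genes by 0.086 (knockout day 0 and day 6), 0.037 (knockout day 0 and wild type day 6) and 0.23 (knockout and wild type at day 6). With replicate block the counts were 1745 (day over both genotypes), 3523 (day in knockout), 1234 (day in wild type), 0 (genotype over both days and at day 6), 2400 (genotype at day 0) and 613 (difference in day change). With the block Tgm2 passed for day in wild type (-1.18, adjusted p = 0.0398) and for the difference in day change (-1.71, adjusted p = 0.0409), and the difference in day change of Tgm5 turned to 0.051.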

Other observations

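For each of the 9 genes, the named genes with the most similar values over the 7 arrays were looked up among 7047 genes with a given symbol whose values spanned over 1 log2 unit. Pearson's r is given as a description of these 7 arrays, which share few distinct levels, so that many genes exceed 0.95. The values of Tgm3 ran closest to Chek1 (r = 0.998), a DNA damage checkpoint kinase, and Kif15 (r = 0.997), a mitotic spindle motor, with 162 genes over 0.95. Chek1 had 7.57 and 7.76 in knockout and 7.20 and 8.01 in wild type at day 6, against 5.19 and 5.44 in knockout and 7.78 on the wild-type array at day 0. Like Tgm3, it was low on the knockout day 0 arrays and high on the other 5.

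Padi1 ran closest to Krt82 (r = 0.999), a hair shaft keratin, and Slc24a5 (r = 0.999), a pigment cell ion exchanger, and the wild-type day 0 array alone sets that likeness. Casp14 ran closest to Ugcg (r = 0.995), the glucosylceramide synthase gene, and Plch2 (r = 0.994), a phospholipase gene. Tgm5 ran closest to Slc10a6 (r = 0.998) and Mapk6 (r = 0.997), which encodes an atypical MAP kinase, and Tgm1 to Btbd3 and Tnfsf9 (r = 0.993 each). Padi2 ran closest to Zfhx4 and Speg (r = 0.994 each; Speg encodes a kinase of striated muscle), and Tgm2 to Suox and C2 (r = 0.996 each), the complement component 2 gene. Padi3 (Pdk3 and Rad51b, r = 0.991 each) and Padi4 (Stmn1 and Sptssb, r = 0.986 each) had fewer genes over 0.95, 68 and 46.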
